A study of Homo sapiens with 6 samples.

Results

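The genes described here encode the membrane protease matriptase (ST14), the protease prostasin (PRSS8) that works with it, the Kunitz-type inhibitors HAI-1 (SPINT1) and HAI-2 (SPINT2), and the protease-activated receptor PAR2 (F2RL1). They are the 5 rows with those symbols among 21463 genes in each table of read counts. The symbols were picked with the resistant and parental values of these libraries in view, so those values are given as a description, with no test. The libraries are poly(A) RNA of 3 established lines of non-small cell lung cancer. Each line gave 1 library of parental, TKI-sensitive cells kept without drug and 1 library of a TKI-resistant subline. HCC827 and PC9 carry an EGFR mutation labelled E19Del, and their sublines HCC827-GR and PC9-GR were selected with gefitinib, an EGFR kinase inhibitor (a TKI). H1975 carries L858R/T790M, and its subline H1975-OR was selected with osimertinib, a TKI that also acts on T790M receptors. Selection lasted 90 days with stepwise increases of drug, and the labels put the half-maximal inhibitory concentrations at 0.016 to 0.07 µM before and 4.288 to 12.485 µM after it. Whether a subline is a single clone, and whether drug was in the medium at harvest, is not given in the sources used here.

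Matriptase is a type II transmembrane serine protease of epithelial cells. It is made as an inactive zymogen, cleaves itself to become active, and is held in check at the cell surface by HAI-1 and HAI-2. Prostasin is a glycolipid-anchored protease that can activate matriptase and be activated by it. PAR2 is a G protein-coupled receptor that is switched on when a protease such as matriptase or trypsin cuts its N-terminus and uncovers a tethered ligand. In lung and other epithelia the system is known for its roles in barrier formation, sodium channel activation and the processing of growth factors.

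All 5 genes are protein coding and lie on different chromosomes (hg38). ST14 (ENSG00000149418) spans 130159562 to 130210376 on chromosome 11, PRSS8 (ENSG00000052344) 31131433 to 31135762 on chromosome 16, and SPINT1 (ENSG00000166145) 40844018 to 40858207 on chromosome 15. SPINT2 (ENSG00000167642) spans 38244035 to 38292614 on chromosome 19 and F2RL1 (ENSG00000164251) 76818933 to 76835315 on chromosome 5. PRSS8 is on the minus strand and the other 4 are on the plus strand. The RefSeq promoter table (GRCh38.p14) matched 2 of the 5 genes, SPINT1 with 2 start sites and F2RL1 with 1, and not ST14, PRSS8 or SPINT2. The stretches upstream of both genes are shown so that the letters searched for motifs can be read. They end at the base before the gene's start in the deposited tables, and capitals mark GC boxes (GGGCGG or CCGCCC, both strands).
SPINT1 upstream, chr15:40843798-40844017, plus strand: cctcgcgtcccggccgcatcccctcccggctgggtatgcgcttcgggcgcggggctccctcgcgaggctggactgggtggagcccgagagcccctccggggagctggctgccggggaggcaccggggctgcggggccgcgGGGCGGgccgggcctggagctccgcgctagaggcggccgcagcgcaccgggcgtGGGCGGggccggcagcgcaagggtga
F2RL1 upstream, chr5:76818780-76818932, plus strand: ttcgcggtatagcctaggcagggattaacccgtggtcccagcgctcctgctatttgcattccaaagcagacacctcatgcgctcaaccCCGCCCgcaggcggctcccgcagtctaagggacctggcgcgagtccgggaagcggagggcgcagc
The SPINT1 stretch is 80.9% G and C with 30 CpG dinucleotides in 220 bases, and the F2RL1 stretch is 64.7% G and C with 14 in 153 bases. The median of all 35116 promoter windows of 300 bases was 58.7%.

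Windows from 250 bases before to 50 after each RefSeq start were searched on both strands for the E-box CAGGTG, which binds repressors of the ZEB and SNAI families, the grainyhead motif AACCNGTT, the AP-1 motif TGANTCA and the GC box. An E-box was found in the F2RL1 window and at the other SPINT1 start, and an AP-1 motif at the first SPINT1 start. The 3 sites are shown with the motif in capitals, 30 bases each.
F2RL1 E-box, chr5:76818987-76819016, plus strand: cgtggcctcccgCAGGTGagtacgctgctc
SPINT1 E-box, chr15:40844439-40844468, plus strand: tcccgggctgatCAGGTGtgtctcctcctc
SPINT1 AP-1, chr15:40844031-40844060, plus strand: cccgacggcgcTGACTCAgtttcaccagaa
These letters are common: 20.6% of all promoter windows hold the E-box, 7.71% the AP-1 motif, 45.0% the GC box and 1.73% the grainyhead motif, which was in none of the windows of these genes. The F2RL1 match runs across a 5′ splice site of an annotated F2RL1 transcript, with its first 3 bases in the exon and the rest in the intron, and the SPINT1 E-box lies between its exons. A match is a description of the letters and not evidence of binding.

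The tables held 21222102 to 29366085 exon reads per library, of which 90.8% to 91.7% mapped uniquely. Levels are given as CPM (exon reads scaled to a TMM-adjusted library size) when 1 gene is followed across libraries, and as TPM (reads per exon length, scaled to the library's total) when genes are compared with each other. A log2 ratio compares the resistant with the parental library of 1 line after 1 CPM was added to both, so it understates differences of genes near 0. Each line has 1 library per state, and intervals are 95% exact binomial intervals that cover counting error only. A count of 0 would allow 0.0985 to 0.145 CPM, depending on the library. In bulk RNA, fewer cells that express a gene and less RNA per cell cannot be told apart.

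The labelled lung epithelial origin was checked with 8 markers (KRT7, KRT8, KRT18, KRT19, EPCAM, CDH1, NKX2-1 and NAPSA), none of which was at 0 reads in any library. Their summed level was 13793 CPM in HCC827 and 5372 CPM in HCC827-GR, 8710 and 7572 CPM in PC9 and PC9-GR, and 2773 and 1740 CPM in H1975 and H1975-OR. Most of each sum came from KRT7, KRT8, KRT18 and KRT19. NKX2-1 and NAPSA, the lung lineage markers among the 8, were at 140 and 289 CPM in HCC827 and 121 and 28.9 CPM in HCC827-GR. In PC9 and PC9-GR, NKX2-1 had 2 and 6 reads and NAPSA 3 and 8. In H1975 and H1975-OR, NKX2-1 was at 8.45 and 4.56 CPM and NAPSA had 13 and 3 reads. The sums therefore describe epithelial more than lung-specific expression. The adhesion molecule CDH1 was at 0.131 CPM in H1975-OR and at 22.1 CPM in HCC827-GR. The 5 leukocyte markers summed to 1.26 to 12.2 CPM and the 3 endothelial markers to 0.802 to 20.2 CPM per library. Mitochondrial genes took 3.32% of exon reads in HCC827 and 6.62% in HCC827-GR, and 4.67% to 6.86% in the other libraries. The part of these shares in the differences below was not tested.

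ST14, the matriptase gene, was highly expressed in both parental lines with E19Del and low in parental H1975. It stood at 334 CPM (9170 reads) in HCC827, 239 CPM in PC9 and 4.29 CPM (101 reads) in H1975. In the sublines it stood at 1.35 CPM (36 reads) in HCC827-GR, 157 CPM in PC9-GR and 0.46 CPM (14 reads) in H1975-OR. The subline was lower in every line, but PC9-GR lay above parental H1975, so the 2 groups overlap. The group means were 193 ± 169.9 CPM (SD, n = 3) parental and 52.8 ± 89.9 CPM resistant. The difference was 248-fold in HCC827 (179 to 354), 1.53-fold in PC9 (1.46 to 1.60) and 9.32-fold in H1975 (5.31 to 17.7). In HCC827, ST14 ranked 3 from the lowest by log2 ratio, among 10298 genes that reached 10 CPM there.

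PRSS8, the prostasin gene, followed ST14 in HCC827 and H1975 but not in PC9. Its levels were 64.6 CPM in HCC827, 52.1 CPM in PC9 and 1.95 CPM (46 reads) in H1975. The sublines held 0.412 CPM (11 reads) in HCC827-GR, 62.7 CPM in PC9-GR and 0.0985 CPM (3 reads) in H1975-OR. PC9-GR was thus level with parental HCC827, within their counting intervals, and H1975-OR was at the detection floor. The resistant-to-parental ratio was 0.00639 in HCC827 (0.00318 to 0.0115), 1.20 in PC9 (1.11 to 1.304) and 0.0505 in H1975 (0.01 to 0.157).

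**Figure D1:**
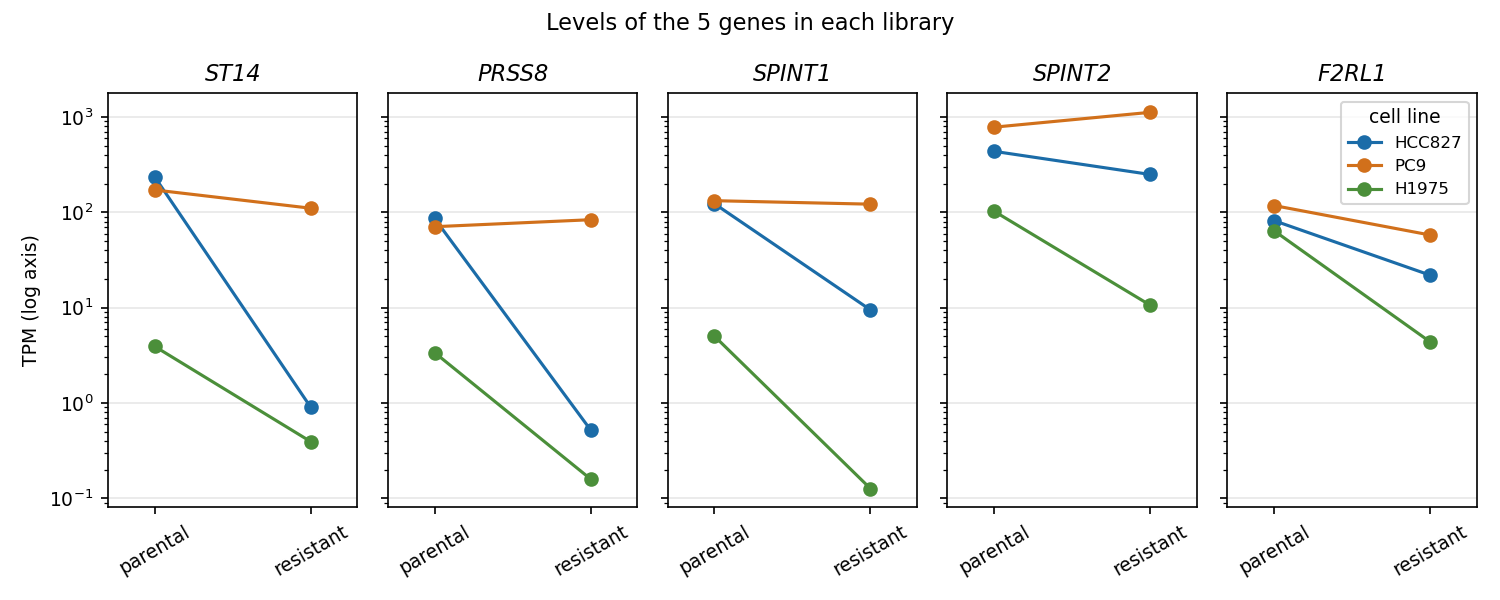
TPM (log axis) of ST14, PRSS8, SPINT1, SPINT2 and F2RL1 in the parental and resistant library of HCC827, PC9 and H1975, with 1 point per library and a line joining the 2 libraries of a cell line. The PC9 lines stay near level, the HCC827 lines of ST14 and PRSS8 drop from 236 and 86.4 TPM to below 1 TPM, and the H1975 points lie lowest in both states for all genes.

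SPINT1, which encodes the transmembrane inhibitor HAI-1, had nearly the same level in 3 libraries and far lower levels in the others. It was at 155 CPM in HCC827, 164 CPM in PC9 and 154 CPM in PC9-GR. The remaining libraries held 12.6 CPM (HCC827-GR), 4.88 CPM (H1975, 115 reads) and 0.131 CPM (H1975-OR, 4 reads). The counting interval of HCC827 overlapped those of PC9 and PC9-GR. SPINT1 was 12.3-fold lower in HCC827-GR (11.0 to 13.8) and 37.2-fold lower in H1975-OR (14.1 to 139). In PC9 the log2 ratio was −0.10 and the ratio 0.935 (0.892 to 0.980).

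SPINT2, which encodes the inhibitor HAI-2, was the most abundant of the 5 transcripts in every library. It was at 444 CPM in HCC827 and 268 CPM in HCC827-GR, a log2 ratio of −0.72. In PC9 it was higher in the subline, at 785 and 1142 CPM, a ratio of 1.46 (1.43 to 1.48). The group means were 436 ± 352 CPM (SD, n = 3) parental and 473 ± 594 CPM resistant. In H1975 it was at 80.4 CPM and in H1975-OR at 8.90 CPM, 9.04-fold lower (7.95 to 10.3). Only 56.2% to 62.2% of SPINT2 reads mapped uniquely, against at least 99.9% for the other 4 genes, so its level is uncertain. With uniquely mapping reads alone the log2 ratios were −0.73, 0.49 and −2.95 in HCC827, PC9 and H1975. PPP1R14A lies on the opposite strand inside SPINT2 and held 407 and 354 reads in the HCC827 libraries and 0 in the other 4. Whether reads were counted by strand is not given in the sources used here.

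F2RL1, the PAR2 gene, was the member whose level was most even among parental lines and lower in every subline. It was at 96.6 CPM in HCC827, 137 CPM in PC9 and 58.4 CPM in H1975. The sublines held 27.4 CPM in HCC827-GR, 68.5 CPM in PC9-GR and 4.27 CPM (130 reads) in H1975-OR. The difference was 3.53-fold in HCC827 (3.25 to 3.84), 2.004-fold in PC9 (1.88 to 2.13) and 13.7-fold in H1975 (11.4 to 16.5). The group means were 97.4 ± 39.4 CPM (SD, n = 3) parental and 33.4 ± 32.5 CPM resistant. In CPM the groups overlap, because PC9-GR lay above H1975. In TPM they do not, with 57.8 TPM in PC9-GR against 64.0 TPM in H1975. Of 11275 genes, 0.887% had all sublines below all parental lines in CPM and 1.52% in TPM.

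Read by line, the 5 genes differed most in HCC827 and H1975 and least in PC9. In HCC827, 4 of the 5 were at least 2-fold lower, where 7.65% of 10298 genes were. The exception was SPINT2. None of the 5 was at least 2-fold higher there, as 10.5% of genes were. In PC9, 0 of the 5 were at least 2-fold lower or higher on the log2 scale with 1 CPM added, where 1.72% of 9911 genes were lower and 2.42% higher. F2RL1 lay next to that limit, at −0.99. In H1975 only SPINT2 and F2RL1 reached 10 CPM in 1 of the libraries, and both were at least 2-fold lower, where 3.22% of 9940 genes were lower and 1.76% higher. ST14, PRSS8 and SPINT1 were under 10 CPM in both H1975 libraries and had log2 ratios of −1.86, −1.43 and −2.38. The rank of the genes within a line also differed: ST14 had the lowest ratio in HCC827 and F2RL1 the lowest in PC9. In H1975 the order depended on the amount added, with F2RL1 lowest at −3.50 with 1 CPM added, and SPINT1 lowest at −4.43, against −3.74 for F2RL1, with 0.1 CPM added.

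**Figure D2:**
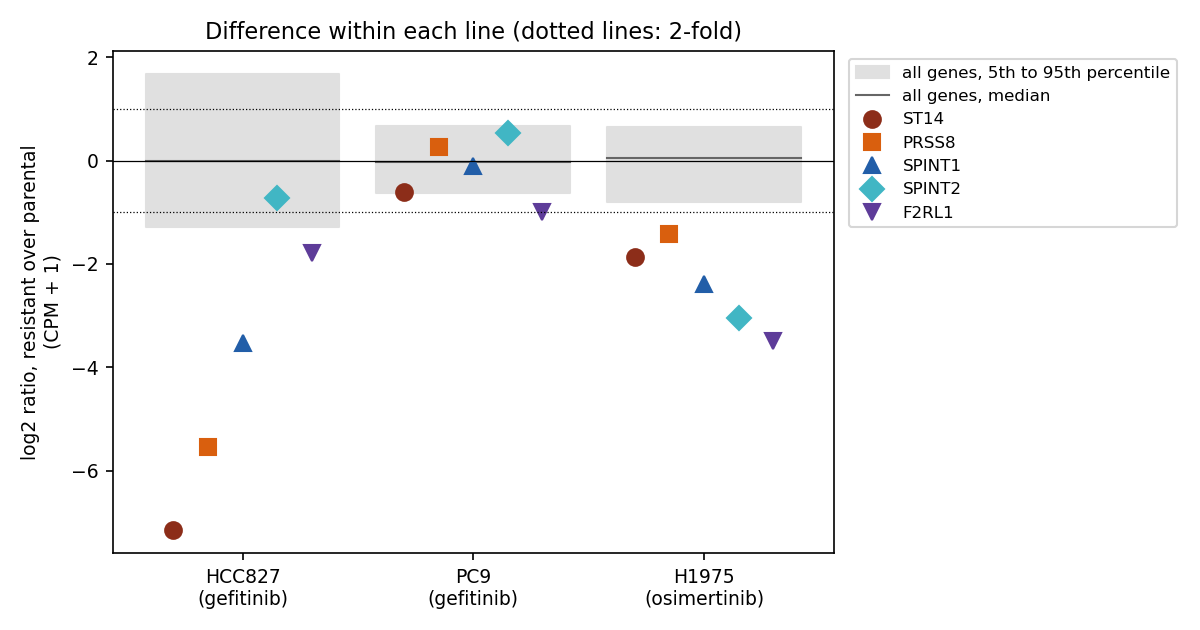
Log2 ratio of resistant over parental CPM, with 1 CPM added, for ST14, PRSS8, SPINT1, SPINT2 and F2RL1 in each cell line. Grey bands hold the 5th to 95th percentile of all genes that reached 10 CPM in either library of the line, with their median as a grey line, and dotted lines mark 2-fold. In HCC827 the values run from −7.16 to −0.72, in PC9 from −0.99 to 0.54 and in H1975 from −3.50 to −1.43.

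Over the 3 lines, ST14, SPINT1 and F2RL1 were lower in every resistant library, 3 of 5 genes, as were 13.7% of 11275 genes, and none was higher in every one, as 14.4% were. ST14, PRSS8, SPINT1 and F2RL1 were at least 2-fold lower in both HCC827 and H1975, as were 1.2% of the same genes. The mean log2 ratio (± SD, n = 3 lines) was −3.21 ± 3.48 for ST14, −2.23 ± 2.98 for PRSS8, −2.00 ± 1.74 for SPINT1, −1.07 ± 1.82 for SPINT2 and −2.09 ± 1.28 for F2RL1. The spread between lines was larger than the mean for ST14, PRSS8 and SPINT2 and smaller for SPINT1 and F2RL1. These means depended on single lines to unlike degrees. Without HCC827 the mean was −1.23 for ST14, −0.58 for PRSS8 and −1.24 for SPINT1. Without H1975 it was −0.09 for SPINT2 and −1.39 for F2RL1, and without PC9 it was −3.48 for PRSS8 and −1.88 for SPINT2. The F2RL1 mean was −2.24 without HCC827 and −2.64 without PC9. In the edgeR quasi-likelihood test of resistant against parental libraries with the line as a block, 0 of the 5 were called, as were 0% of 13541 genes, and 1 (F2RL1) had an unadjusted p under 0.05. DESeq2 called 2 of the 5 (SPINT1 and F2RL1) and 0.428% of the same genes. Since the genes were picked on this contrast, nothing is read from these counts.

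The balance of protease to inhibitor transcripts differed between the lines and within HCC827 and PC9. ST14 and SPINT1, which encode matriptase and its main surface inhibitor, stood at 1.92 ST14 transcripts per SPINT1 transcript in HCC827 (1.85 to 1.99, TPM ratio) and at 0.0953 in HCC827-GR (0.0656 to 0.135). The ratio was 1.296 in PC9 (1.24 to 1.35) and 0.907 in PC9-GR (0.866 to 0.949). In H1975 it was 0.781 (0.592 to 1.03) and in H1975-OR 3.11 (0.978 to 13.0), where 14 ST14 reads stood against 4 SPINT1 reads and the intervals of the 2 libraries overlap. So ST14 was lower relative to SPINT1 in both gefitinib-selected sublines. In the osimertinib-selected pair the ratio was higher in the subline, on these few reads. Overlap of the intervals does not show that this pair is alike, and no interval was computed for the change between libraries.

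Inhibitor transcripts (SPINT1 plus SPINT2) exceeded protease transcripts (ST14 plus PRSS8) in every library. There were 560.2 inhibitor TPM and 323 protease TPM in HCC827, a ratio of 1.74, and 259 against 1.42 TPM in HCC827-GR, a ratio of 182. The ratio was 3.78 in PC9 and 6.41 in PC9-GR, and 14.7 in H1975 and 19.4 in H1975-OR. The ratio in H1975-OR rests on 14 ST14 and 3 PRSS8 reads, and no interval was computed for it, so the H1975 pair is not ordered here. SPINT2 made up 45.3% of the summed TPM of the 5 genes in HCC827 and 88.4% in HCC827-GR, 61.4% and 75.01% in PC9 and PC9-GR, and 57.3% and 67.7% in H1975 and H1975-OR. These ratios carry the uncertainty of the SPINT2 reads. The summed TPM of the 5 genes was lowest in H1975-OR, at 15.6 TPM, and highest in PC9-GR, at 1497 TPM.

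**Figure D3:**
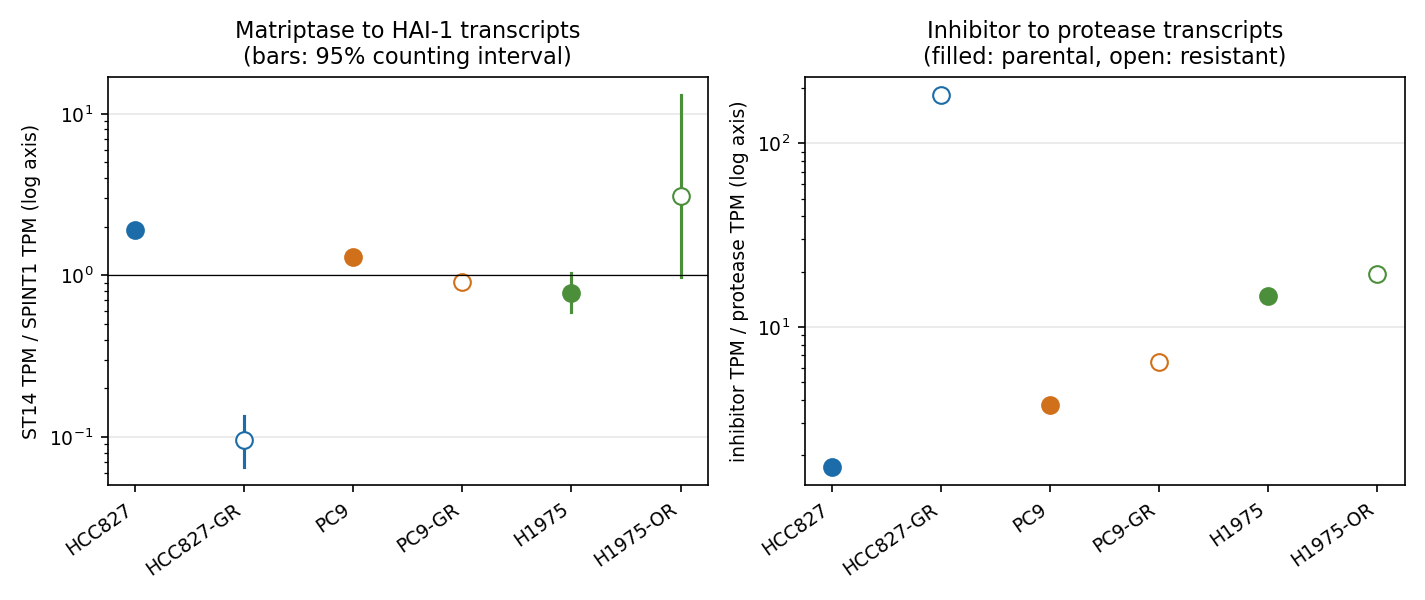
Left, ST14 TPM over SPINT1 TPM in each library on a log axis, with 95% counting intervals (some are smaller than the symbol). Right, summed TPM of SPINT1 and SPINT2 over that of ST14 and PRSS8 on a log axis. Filled points are parental and open points resistant libraries; HCC827-GR stands lowest on the left at 0.0953 and highest on the right at 182.

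PRSS8 relative to ST14 was 0.365 (0.347 to 0.384, TPM ratio) in HCC827 and 0.578 (0.265 to 1.16) in HCC827-GR, intervals that overlap. In PC9 it was 0.411 (0.385 to 0.439) and in PC9-GR 0.757 (0.713 to 0.804), intervals that do not. It was 0.861 (0.594 to 1.23) in H1975 and 0.405 (0.0746 to 1.45) in H1975-OR, again overlapping. F2RL1 transcripts were fewer than ST14 transcripts in HCC827, PC9 and PC9-GR, at 0.346, 0.685 and 0.523 per ST14 transcript. In the other libraries the order was reversed, with 24.3 F2RL1 transcripts per ST14 transcript in HCC827-GR, 16.3 in H1975 and 11.1 in H1975-OR. The receptor transcript was therefore present at 21.9 TPM in HCC827-GR and 64.0 TPM in H1975, where ST14 was at 0.903 and 3.92 TPM.

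Spliced and intron reads gave the same picture for ST14 and SPINT1 in HCC827. Reads across exon junctions of ST14 numbered 6434 in HCC827 and 29 in HCC827-GR, and intron reads 217 and 2. For SPINT1 the numbers were 1988 and 142 spliced reads and 148 and 7 intron reads. SPINT2 intron reads were 266 in PC9 and 374 in PC9-GR, a scaled ratio of 1.22 (1.04 to 1.43), and 55 in H1975 and 13 in H1975-OR, a ratio of 0.183 (0.092 to 0.339). F2RL1 had at most 8 intron reads per library, too few to compare. These reads come from the same libraries and are not independent of the exon counts.

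Among the genes, ST14 and PRSS8 had the most similar profiles. Pearson's r of log2(CPM + 1) over the 6 libraries was 0.995 for that pair, and PRSS8 ranked 8 among 11274 genes by its r with ST14. It was 0.95 for SPINT1 with SPINT2, 0.94 for SPINT1 with ST14 or PRSS8, and 0.80 to 0.87 for SPINT2 with ST14 or PRSS8 and for F2RL1 with any other gene. The libraries come as pairs of 1 line, so these are fewer than 6 independent points, and the values are descriptions.

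The genes whose profile was most like that of each member, by the same r over 6 libraries, were found among 11275 genes. For ST14 they were RAB11FIP4, a RAB11 effector, SMIM22, and AP1M2, a subunit of an epithelial adaptor complex for basolateral sorting (r = 0.999, 0.997 and 0.996). In the order HCC827, PC9 and H1975, the log2 ratios of AP1M2 were −6.36, −0.13 and −1.34. For PRSS8 they were the microtubule-binding MAP7 at −4.79, 0.41 and −0.96, the endocytic adaptor EPN3 at −4.24, 0.12 and −0.70, and the protein kinase A inhibitor PKIB at −4.78, 0.65 and −0.89. For SPINT1 they were ERBB3, an EGFR family receptor with 54.8% unique reads, CDC42BPG, a kinase bound by CDC42, and LRRC1. ERBB3 had −3.03, −0.41 and −2.31. For SPINT2 they were the lysosomal fucosidase FUCA1, periplakin (PPL) of the desmosomal plaque and KIAA1522, and PPL had −0.76, 0.06 and −2.76. For F2RL1 they were PAK6, a kinase with 46.3% unique reads, at −1.10, −0.51 and −2.41, the lipid phosphatase PLPP2 and ERMP1.

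Of the nearest measured genes described here, only RHOV was at least 2-fold apart in any line with 1 CPM added. ST14 lies 14751 bases from APLP2 and 16301 bases from ZBTB44, whose log2 ratios in HCC827 were −0.65 and 0.31. KAT8, an acetyltransferase gene 40 bases from PRSS8, had 0.16, −0.08 and 0.23 in HCC827, PC9 and H1975. F2R, the gene of the thrombin receptor PAR1, is the nearest measured neighbour of F2RL1, 83152 bases away, and had −0.26, −0.37 and −0.79. RHOV, a gene of a small GTPase 14007 bases from SPINT1, had −3.22, −0.23 and −1.40, and was at most 18.1 CPM. C19orf33, 11547 bases from SPINT2, had −0.94, 0.83 and −0.99, the same signs as SPINT2, and lay next to the 2-fold limit in H1975 at 36.4 and 17.8 CPM. ZFYVE19, on the other side of SPINT1, had −0.92, −0.21 and −0.10.

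**Figure D4:**
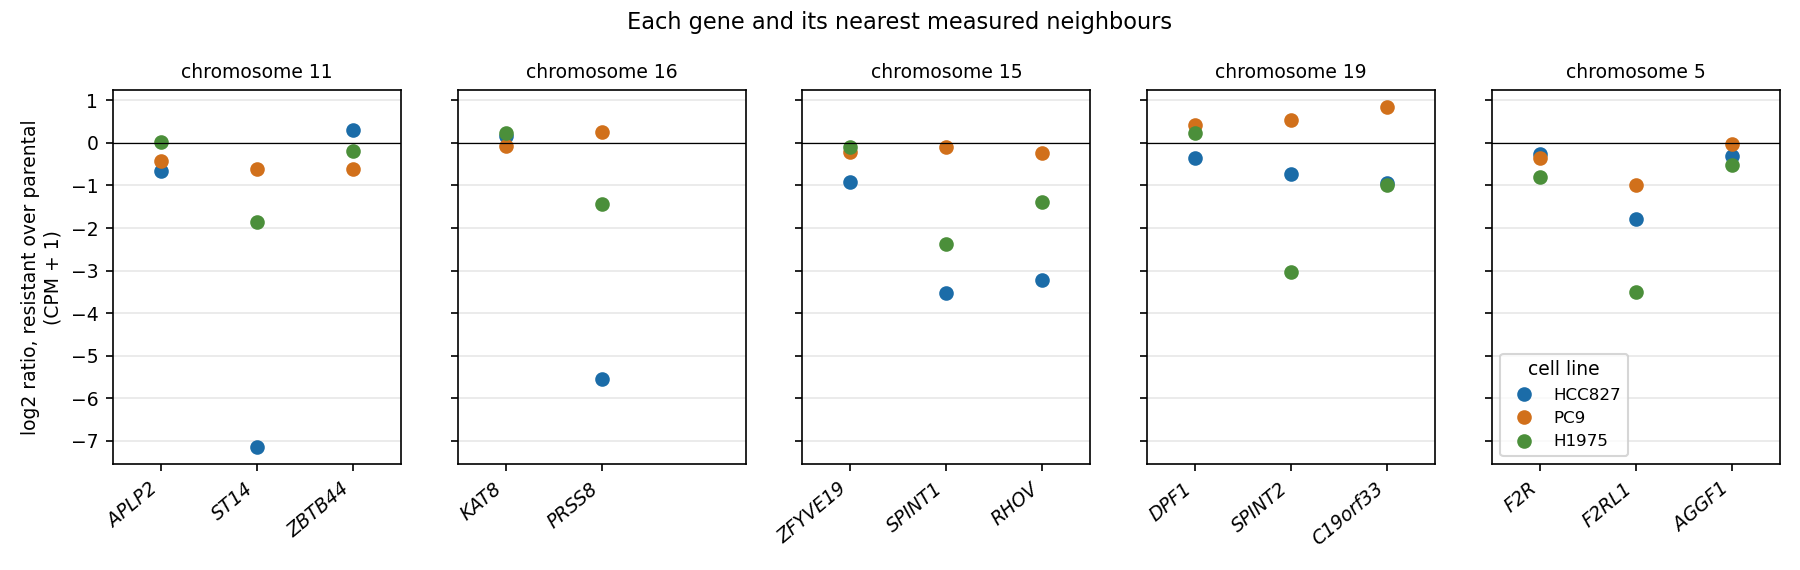
Log2 ratio (resistant over parental, CPM + 1) of each of the 5 genes, in the middle of its panel, and of measured genes next to it, with 1 point per cell line. RHOV next to SPINT1 reaches −3.22 in HCC827, while KAT8 next to PRSS8 stays between −0.08 and 0.23.

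Other membrane-anchored serine proteases, relatives of matriptase and prostasin, were mostly low in these lines. Of 17 listed, 9 passed the filter on low counts. EdgeR called 0 in either direction (0 at an unadjusted p under 0.05, and 0 by DESeq2). In all 3 sublines 0 were lower and 1 was higher, TMPRSS6, at no more than 0.487 CPM (13 reads) in any library. Beside this and the lists below, 13.7% of 11275 genes were lower and 14.4% higher in all 3 sublines, and DESeq2 called 0.428% of 13541. In HCC827, 3 of the 4 with at least 10 CPM were at least 2-fold lower, as were 7.65% of 10298 genes. TMPRSS4, which did not pass the filter, went from 670 reads to 0 and TMPRSS13 from 932 reads to 0, at least 217-fold and 302-fold lower against a floor of 3 counts in HCC827-GR. TMPRSS11E went from 24.1 to 0.375 CPM. PRSS21, the glycolipid-anchored testisin gene, was at 46.8 and 58.7 CPM in HCC827 and HCC827-GR. In PC9 the hepsin gene HPN was at 4.65 and 14.0 CPM, and in H1975 TMPRSS3 was at 4.41 and 25.3 CPM. The median log2 ratio of relatives with at least 10 CPM was −4.43 in HCC827 (4 genes), 0.27 in PC9 (3 genes) and 2.28 in H1975 (3 genes). Of the 3 in H1975, 2 were at least 2-fold higher, as were 1.76% of 9940 genes. Genes that reached 10 CPM in only 1 library of a pair weigh on these medians. They were TMPRSS4, TMPRSS11E and TMPRSS13 in HCC827, HPN in PC9-GR, and TMPRSS2 and TMPRSS3 in H1975-OR. PRSS21, above 10 CPM in both libraries of each line, had 0.32, −0.63 and −0.48. The ratios of ST14 were −7.16, −0.61 and −1.86, and ST14 was under 10 CPM in both H1975 libraries. Its signs are therefore not set against these medians.

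Other activators of PAR2 were listed as 12 genes, proteases that can cut it and tissue factor (F3), a cofactor. Of these, 3 passed the filter (0 called by edgeR, 0 at an unadjusted p under 0.05, and 0 by DESeq2). F3, which acts with coagulation proteases, was at 419 and 927 CPM in HCC827 and HCC827-GR, 584 and 714 CPM in PC9 and PC9-GR, and 71.2 and 48.1 CPM in H1975 and H1975-OR. The coagulation proteases F7 and F10 had at most 2 reads in any library. PRSS3, mesotrypsin, went from 30.03 to 0.0375 CPM in HCC827, where the resistant level is 1 read. The kallikrein KLK6 was at 572 and 745 CPM in PC9 and PC9-GR and went from 34.8 to 0.15 CPM in HCC827. KLK5 did not pass the filter, since only the PC9 libraries held it, at 290.1 and 393 CPM. PC9 and its subline therefore held both ST14 and these 2 kallikreins, and HCC827-GR held little of any of the 3.

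Among the other receptors of the family, F2R had smaller differences than F2RL1 in each line. Of the 3 other receptors, none was called by edgeR (0 at an unadjusted p under 0.05, and 0 by DESeq2) and 1, F2R, was lower in all sublines. F2R stood at 22.4 and 18.5 CPM in HCC827 and HCC827-GR, 16.2 and 12.4 CPM in PC9 and PC9-GR, and 59.7 and 34.1 CPM in H1975 and H1975-OR. Its log2 ratios were −0.26, −0.37 and −0.79 in that order of lines, against −1.78, −0.99 and −3.50 for F2RL1. F2RL3 was at most 5.17 CPM. F2RL2 was at 3.10 and 7.21 CPM in PC9 and PC9-GR, a log2 ratio of 1.002, with 4.02% of its reads mapping uniquely. The 12 genes listed for the PAR2 signal relay all passed the filter, 0 were called by edgeR (0 at an unadjusted p under 0.05, and 0 by DESeq2), and, of those with at least 10 CPM in a line, 0 were at least 2-fold apart there with 1 CPM added. PLCB1 and PLCB4, phospholipase C genes, were under 1 CPM in both H1975 libraries and were not counted there. GNAQ, a G protein subunit that couples the receptor to phospholipase C, had log2 ratios of 0.24, 0.02 and 0.19, and ARRB1, a beta-arrestin, had 0.91, −0.49 and 0.93.

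Substrates of matriptase or prostasin went in both directions. Of 13 listed, 10 passed the filter, 2 were lower and 4 higher in all sublines, and edgeR called 0 (1 at an unadjusted p under 0.05, and 0 by DESeq2). EPCAM, an adhesion molecule that matriptase cleaves, was at −5.23, −0.03 and −4.24 (log2 ratio, lines in the same order). SCNN1A, the alpha subunit of the epithelial sodium channel that prostasin activates, had −4.70, −0.42 and −1.55. Both were lower in HCC827-GR and H1975-OR, as ST14 and SPINT1 were. In H1975 and H1975-OR, SCNN1A was at 7.60 and 1.94 CPM, and ST14 and SPINT1 were also under 10 CPM. The sizes of these H1975 ratios are therefore not compared. The plasminogen activator PLAU, with 47.6% unique reads, had 1.43, 0.26 and −2.33, and CDCP1, a surface protein, had 0.58, 0.31 and 0.05. IGFBP7 was higher in each subline, at 65.8, 10.1 and 55.4 CPM in the HCC827, PC9 and H1975 sublines against 0.0729, 0.679 and 12.5 CPM in the parental cells. The median over substrates with at least 10 CPM was 0.93 in HCC827 (8 genes), 0.31 in PC9 (9 genes) and −0.32 in H1975 (6 genes), beside −0.01, −0.02 and 0.06 over all genes.

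Other serine protease inhibitors did not share a direction either. Of 20 listed, 16 passed the filter, 3 were lower and 1 higher in all sublines, and edgeR called 0 (0 at an unadjusted p under 0.05, and 0 by DESeq2). SERPINE2, which can inhibit prostasin, was at 12.6 and 325 CPM in HCC827 and HCC827-GR, 109 and 159 CPM in PC9 and PC9-GR, and at 0 reads in both H1975 libraries. TFPI2, another Kunitz-type inhibitor, had −4.59, −1.45 and −1.41 with 56.7% unique reads. The Kunitz-bearing APP had 1.08, 0.20 and 0.21. In HCC827-GR the transcripts of HAI-1 were at 9.48 TPM, those of HAI-2 at 250 TPM and those of SERPINE2 at 207 TPM.

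Regulators of the epithelial state with at least 10 CPM had median log2 ratios of −4.15 in HCC827 (8 genes), −0.23 in PC9 (7 genes) and −0.03 in H1975 (3 genes). ST14 was at −7.16, −0.61 and −1.86 and PRSS8 at −5.54, 0.26 and −1.43. In H1975 both were under 10 CPM, while the median covers only ELF3, EHF and ESRP2, so they are not set against it. Of the regulators under 10 CPM there, ESRP1 had −2.78, GRHL2 −1.43, GRHL1 −0.65, OVOL1 −0.19, OVOL2 −0.12 and GRHL3 0.05. Of 9 listed transcription and splicing regulators, 6 were lower and 0 higher in all sublines, beside 13.7% and 14.4% of 11275 genes. EdgeR called 0 (0 with unadjusted p under 0.05) and 1, ESRP1, was called by DESeq2, which called 0.428% of 13541 genes. In HCC827, 8 of the 8 with at least 10 CPM were at least 2-fold lower. In PC9 1 of 7 was (ELF3, at 144 and 64.2 CPM) and in H1975 0 of 3. The shares over all genes were 7.65% in HCC827, 1.72% in PC9 and 3.22% in H1975. GRHL2, a grainyhead factor, went from 1650 reads to 0 in HCC827, at least 535-fold lower. It was at 96.1 and 102 CPM in PC9 and PC9-GR. In H1975 it was at 1.78 CPM (42 reads) and in H1975-OR at 0.0328 CPM (1 read). The splicing factor ESRP1 was at 257 and 0.187 CPM in HCC827 and HCC827-GR and at 161 and 137 CPM in PC9 and PC9-GR. H1975 held 5.86 CPM of ESRP1 and H1975-OR 0 reads, at least 59.4-fold lower. Of 6 listed EMT repressors, 5 passed the filter, 2 were higher and 1 lower in all sublines, and edgeR called 0 (1 at an unadjusted p under 0.05, and 0 by DESeq2). ZEB1 was at 0.62 and 25.7 CPM in HCC827 and HCC827-GR, 1.07 and 3.06 CPM in PC9 and PC9-GR, and 43.8 and 50.1 CPM in H1975 and H1975-OR. The libraries with at least 25.7 CPM of ZEB1 were thus the 3 in which ST14 was under 5 CPM. This split was seen after the values were known, and its part in the levels of ST14 was not tested. ZEB2 was at 10.2 CPM or more in the same libraries and lower in the others. SNAI1, SNAI2, TWIST1 and TWIST2 did not split in this way. SNAI2 was at 18.8 CPM in PC9-GR and 10.4 CPM in H1975-OR, and SNAI1 at 6.12 CPM in HCC827 and 2.17 CPM in HCC827-GR. Within H1975 the log2 ratio of ZEB1 was 0.19 and that of ST14 −1.86. Of 7 epithelial markers (the 8 above without EPCAM), 4 were lower and 0 higher in all sublines, edgeR called 0 (3 with unadjusted p under 0.05) and 0 were called by DESeq2.

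**Figure D5:**
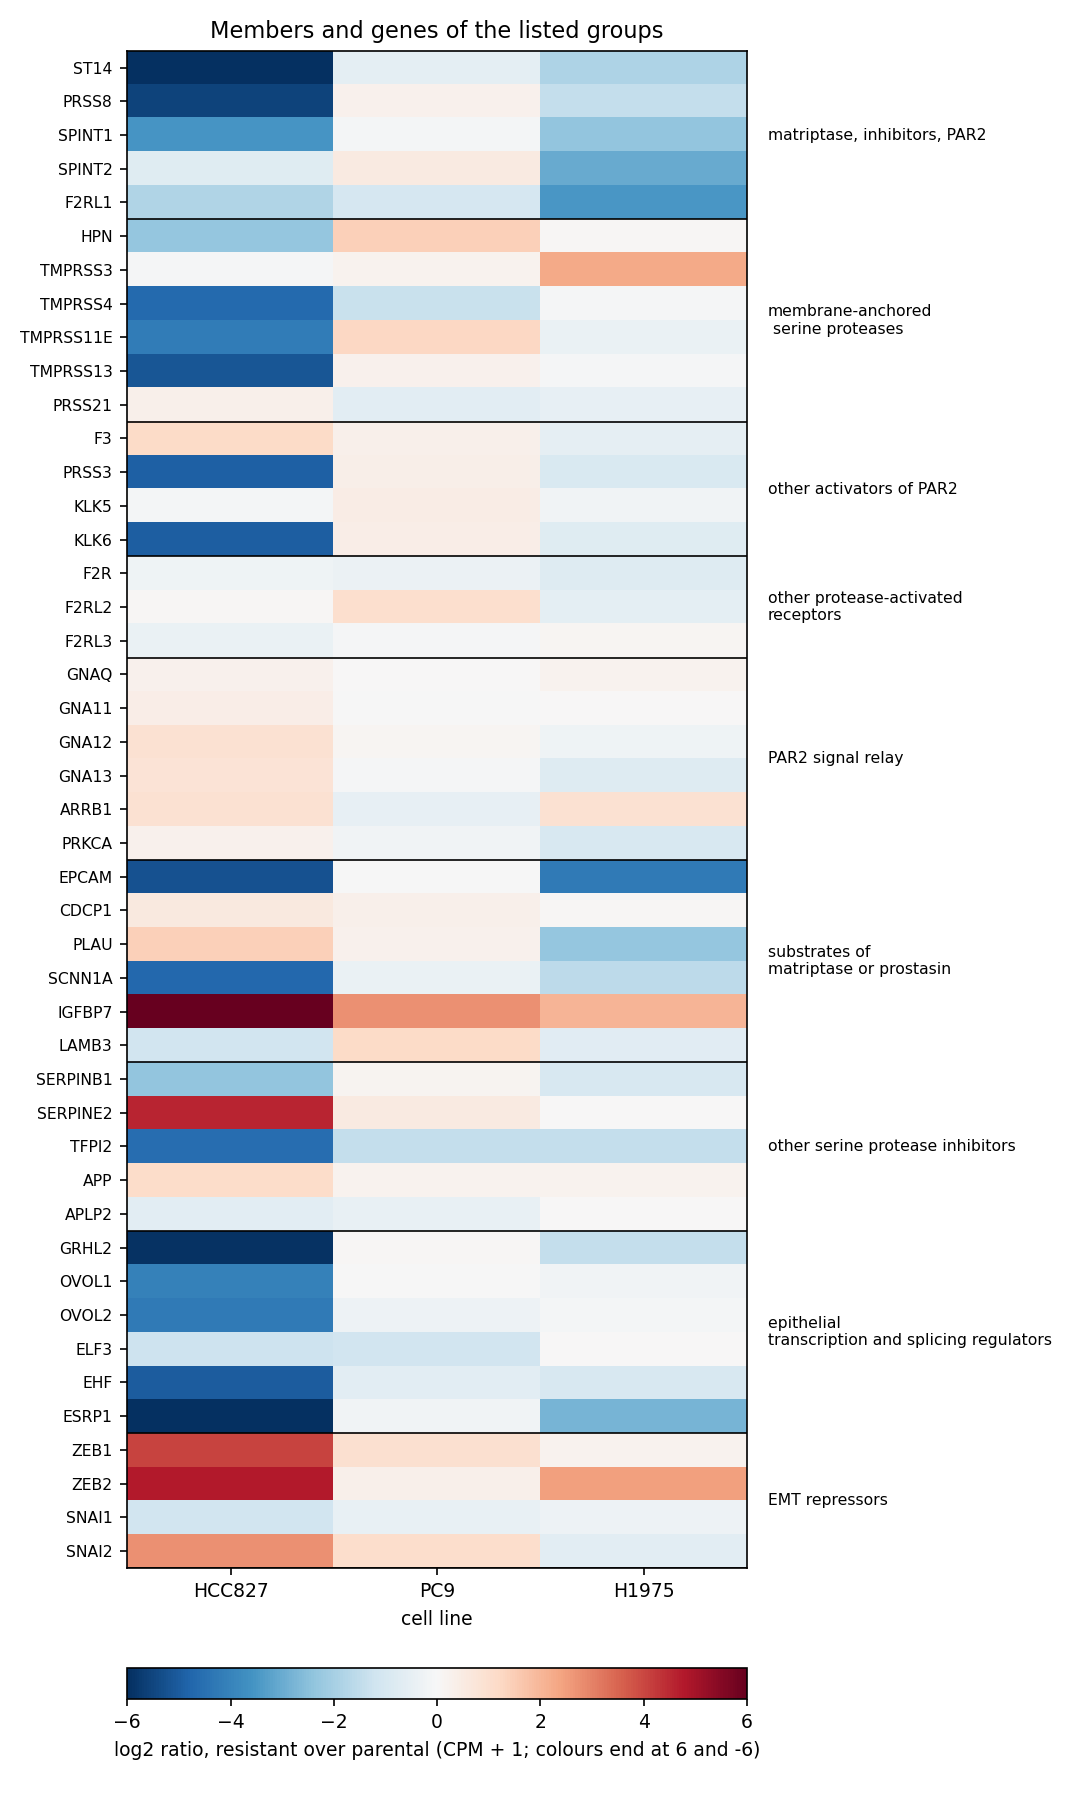
Log2 ratio of resistant over parental CPM, with 1 CPM added, in HCC827, PC9 and H1975 for the 5 genes and genes named from each listed group (colours from −6, blue, to 6, red). The HCC827 column is blue for ST14, PRSS8, EPCAM, SCNN1A, GRHL2 and ESRP1 and red for SERPINE2, IGFBP7, ZEB1 and ZEB2, while most PC9 values of the same genes are near 0.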

How the data were processed

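For each library the authors deposited gene tables of whole-number read counts (total, uniquely mapping, intron and exon-junction reads) and, per the file headers, TPM. Trimmomatic, Bowtie2 and hg38 are listed, without role or version, per the submitters' processing notes. The program that counted reads is not given in the sources used here, nor is its gene annotation or its treatment of multi-mapping reads. Libraries were prepared with a stranded mRNA kit, per the labels' protocols. TPM recomputed from the deposited exon reads and exon lengths differed by less than 5e-07 TPM.

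Total exon reads were scaled by TMM and tested with edgeR 4.0.16 in R 4.3.3 (quasi-likelihood, cell line as block, 2 residual degrees of freedom, genes kept by filterByExpr with minimum count 10 and minimum total 15, Benjamini-Hochberg over 13541 genes, threshold 0.05), and with DESeq2 1.42.0. The test was checked on simulated counts. The pairs come from the cell line labels: deviations from the group means correlated at 0.61 to 0.84 within a line. All 5 genes passed the filter. Members and gene lists were chosen with earlier results of these data known. Named genes are, from each list, up to 4 of highest mean CPM and up to 2 more of largest mean absolute log2 ratio, and for each member the 3 most similar genes and the nearest kept gene on either side. Some genes so named are not reported here. Promoter windows came from RefSeq (GRCh38.p14), and gene starts of the members differed by at most 220 bases between the tables and GENCODE.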

Additional observations from a re-analysis of the deposited data

How the results depend on the processing

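The edgeR test called 0 genes with TMM, relative log expression or library-size scaling, with no filter or at least 10 CPM in 3 libraries, with uniquely mapping reads, without each line in turn (0 to 0) and with no replicate block (0, with 47 genes at an unadjusted p under 0.05 against 502 with the block), while DESeq2 called 58 (32 higher, 26 lower). Counts of genes at 2-fold stayed within 1.5 times under other scaling, reads, offsets and TPM. With a minimum of 1 CPM they were 1196 lower in HCC827, 275 lower and 454 higher in PC9, and 585 lower and 299 higher in H1975, since more genes are counted. Library-size scaling moved the HCC827 median of the 11275 genes with at least 10 CPM in any of the 6 libraries from −0.02 to −0.11. None of the 15 log2 ratios of the 5 genes changed sign under the 5 alternatives. F2RL1 in PC9 crossed 2-fold, with −1.002 when 0.1 CPM was added and −1.01 in TPM. With 0.1 CPM added, the largest shift was 2.05, for SPINT1 in H1975, where 4 reads limit the value. PRSS8 in H1975-OR rests on 3 reads.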
